A study of Mus musculus with 16 samples.

Results

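The odorant receptors of mouse chromosome 1 were followed across all libraries of a microarray study of olfactory sensory neurons and the odorant bourgeonal. They were chosen by position and name: probe sets whose identifier places them on chromosome 1 and whose symbol is Olfr followed by a number, leaving out Olfr16 and control probe sets. The rule used no measured value, but the members were chosen with earlier results of these data known. It gave 26 receptor genes, against 1064 other odorant receptor genes and 19505 named genes in all. The pseudogene Olfr421-ps1 lies among them but has a longer symbol and was not counted.

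The mice were C57BL/6 animals of both sexes, 7 to 12 weeks old, and all groups carried the S100a5-tauGFP reporter. In total 24 mice stayed alone in clean air chambers for 40 hours at 3.1 L/min. From hour 26 they received a 10 second pulse of bourgeonal (odor) or of filtered air (vehicle) every 20 minutes. Cells of the olfactory mucosa of 3 mice were pooled and sorted by fluorescence, which gave 4 groups of 4 libraries: odor titled GFP-, odor titled GFP+, vehicle titled GFP- and vehicle titled GFP+. The reporter marks only cells that transcribe S100a5, and each pool averages 3 animals, so the spread between animals within a pool cannot be seen.

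In all 16 libraries the gate in the sample title is the reverse of that in the cell type field. Groups follow the titles here. S100a5, the gene behind the reporter, was higher in the libraries titled GFP- in every pool, with log2 ratios (titled GFP- minus titled GFP+ values) of 1.07, 1.00, 0.85 and 1.46 in odor pools and 0.85, 0.65, 1.17 and 1.14 in vehicle pools. S100a5 thus follows the cell type field and not the titles, and each direction below is that of the libraries as titled. Omp, which marks mature olfactory sensory neurons, had log2 ratios of 0.11 in odor pools and -0.02 in vehicle pools and did not pass the test in either. Arrays have no read depth, so the number of pools limits the precision. The 95th percentile of 319 vomeronasal receptor genes, which belong to another organ, served as a guide to background and lay between 4.29 and 4.97 on the log2 scale over the 16 libraries.

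Odorant receptors are G protein-coupled receptors in the cilia of olfactory sensory neurons. A mature neuron typically transcribes a single allele of a single receptor gene, so the level of a receptor in sorted cells reflects the neurons that chose it. Receptor genes lie in clusters, and choice depends on homeodomain and Olf1/Ebf transcription factors and on enhancers that contact many clusters. An odorant that binds a receptor raises cyclic AMP through the G protein subunit Gnal and the cyclase Adcy3, opens the cyclic nucleotide-gated channel and fires the cell. S100a5 is a calcium-binding protein that is transcribed more in active neurons, so its reporter sorts neurons, and with them the receptors they chose, by recent activity. Bourgeonal is an aromatic aldehyde with the smell of lily of the valley. No ligand is named for a chromosome 1 receptor in the labels.

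The sequence before the annotated start of a receptor gene is where choice factors could bind, so 3 such windows are shown, from receptors of the same cluster whose gate ratios ran opposite ways. Olfr1406 was lower in the libraries titled GFP-, and Olfr418 and Olfr433 were higher there. The windows are the 250 bases before the start in RefSeq (GRCm38.p6), 5′ to 3′ on the gene's strand: chr1:173184505-173184754 on the minus strand for Olfr1406, chr1:173269897-173270146 on the plus strand for Olfr418 and chr1:174041683-174041932 on the plus strand for Olfr433. Capitals mark the homeodomain core TAATTA.
Olfr1406: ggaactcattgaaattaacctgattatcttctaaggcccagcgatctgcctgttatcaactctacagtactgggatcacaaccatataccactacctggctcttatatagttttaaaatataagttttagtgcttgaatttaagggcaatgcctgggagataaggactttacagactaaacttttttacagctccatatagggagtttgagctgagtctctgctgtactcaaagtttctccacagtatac
Olfr418: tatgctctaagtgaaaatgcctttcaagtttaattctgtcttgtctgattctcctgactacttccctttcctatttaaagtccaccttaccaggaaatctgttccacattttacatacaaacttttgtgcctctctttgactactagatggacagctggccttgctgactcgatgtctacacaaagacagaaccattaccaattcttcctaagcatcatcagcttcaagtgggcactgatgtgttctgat
Olfr433: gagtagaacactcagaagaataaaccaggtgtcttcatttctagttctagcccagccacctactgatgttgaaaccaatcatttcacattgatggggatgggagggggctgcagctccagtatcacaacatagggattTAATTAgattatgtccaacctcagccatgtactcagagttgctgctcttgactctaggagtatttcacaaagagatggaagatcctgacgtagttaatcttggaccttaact

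Windows were matched for 24 of the 26 receptors. In 12 of these the annotated start is itself a start codon, so the window precedes the coding exon and not a mapped transcription start. TAATTA was found on either strand in 3 of 24 windows (12.5%), those of Olfr417, Olfr430 and Olfr433. The same core was in 18.0% of 904 windows of other receptors and in 4.84% of all 32851 windows. The Olf1/Ebf core CCCNNGGG was in 0 of 24 windows, in 2.65% of those of other receptors and in 11.8% of all. TATAAA was in 5 of 24 windows (20.8%), in 39.7% of those of other receptors and in 12.4% of all. TAATTA ends with the TA that TATAAA begins with, so matches of these cores can overlap. The 3 receptors with TAATTA had gate ratios in both directions: Olfr417 was lower in the libraries titled GFP-, and Olfr430 and Olfr433 were higher there.

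Most of the 26 receptors were measured above background. Their mean lay above the background guide in all 4 groups for 20 receptors. For 3 receptors, Olfr1413, Olfr427 and Olfr248, it lay below the guide in all 4 groups, so nothing is read from their ratios. Olfr1411 was below it in both groups titled GFP+, Olfr1406 in both groups titled GFP-, and Olfr420 in the vehicle group titled GFP-. The 3 dim receptors ranged from 2.26 to 4.75 over the 16 libraries. Values of 11.99 to 13.14 were found in every library for Olfr1412, and 11.22 to 12.70 for Olfr419. The remaining 4 of the 6 receptors with the highest means were Olfr220 with 9.83 to 13.21, Olfr1410 with 8.98 to 12.37, Olfr418 with 9.20 to 11.64 and Olfr1416 with 9.15 to 11.90. Values of different probe sets depend on their probes, so these ranges rank no receptor against another. Olfr421-ps1, the pseudogene, stayed between 2.41 and 3.58, below background in every group.

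**Figure D1:**
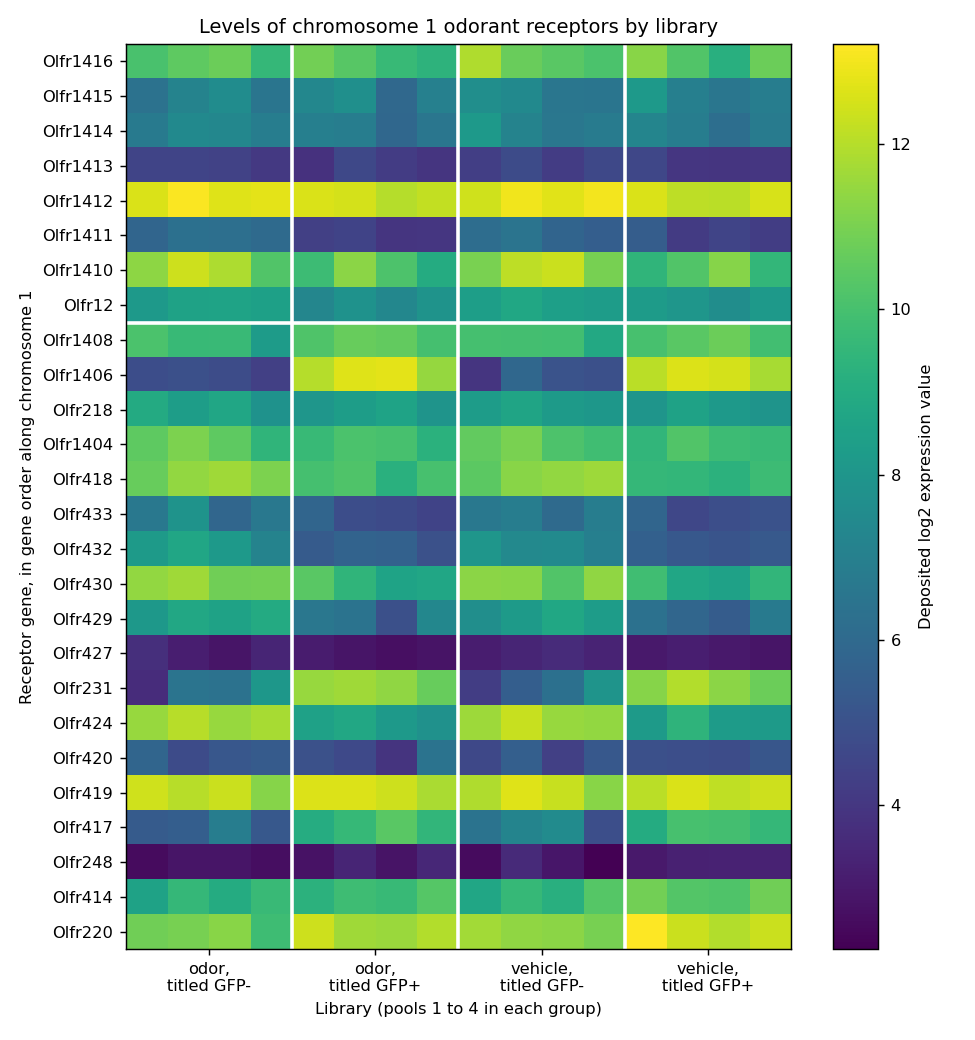
Deposited log2 value (colour) of the 26 receptors (rows, in gene order; the white horizontal line separates the 2 clusters) in the 16 libraries (columns, pools 1 to 4 in each of 4 groups); colours are to be read along a row, since levels of different probe sets are not comparable. The row of Olfr1406 is dark in both groups titled GFP- and bright in both titled GFP+, Olfr424 shows the opposite, and Olfr427 and Olfr248 are dark in all 16 libraries.

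The comparison of gates asked which receptors differ between the 2 sorted fractions, in odor pools and in vehicle pools. In odor pools 10 of the 26 receptors were higher and 5 lower in the libraries titled GFP- (limma, adjusted p under 0.05 over all genes). In vehicle pools 9 were higher and 5 lower. With each library centred on its median, which raises the median ratio of all genes, the counts were 15 higher and 4 lower in odor pools and 15 higher and 5 lower in vehicle pools. Among all 19505 genes, 7.82% were called higher and 10.2% lower in odor pools, and 6.23% higher and 9.95% lower in vehicle pools. The chromosome 1 receptors therefore passed in larger shares than genes at large, 38.5% higher and 19.2% lower in odor pools and 34.6% higher and 19.2% lower in vehicle pools. The shares of the 1064 other receptors lay close by for higher calls, at 39.2% in odor pools and 35.6% in vehicle pools, and somewhat above for lower calls, at 26.8% and 27.5%. The median log2 gate ratio of the 26 was 0.37 in odor pools and 0.37 in vehicle pools, beside 0.34 and 0.24 for other receptors and 0.10 and 0.09 for all genes. The median size of the ratio, without its sign, was 0.90 in odor pools and 0.85 in vehicle pools, beside 1.40 and 1.28 for other receptors. Whether the 26 differ from other receptors was not tested. In sorted bulk cells, fewer neurons with a receptor and less of its RNA per neuron cannot be told apart.

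Both treatments gave much the same set of calls. There were 9 receptors higher and 4 lower in the libraries titled GFP- in both treatments, 3 called in a single treatment and 10 called in neither. Across the 26 receptors the odor and vehicle gate ratios had a Pearson r of 0.993 and a Spearman rho of 0.975. This describes 26 probe sets on the same arrays, and receptors are not independent replicates. The ratio had the same sign in all 8 pools for 17 receptors, 11 above 0 and 6 below 0. The 11 include Olfr427, which is below background in all 4 groups. Signs over pools and calls shared by both treatments were not counted over all genes or the other receptors.

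**Figure D2:**
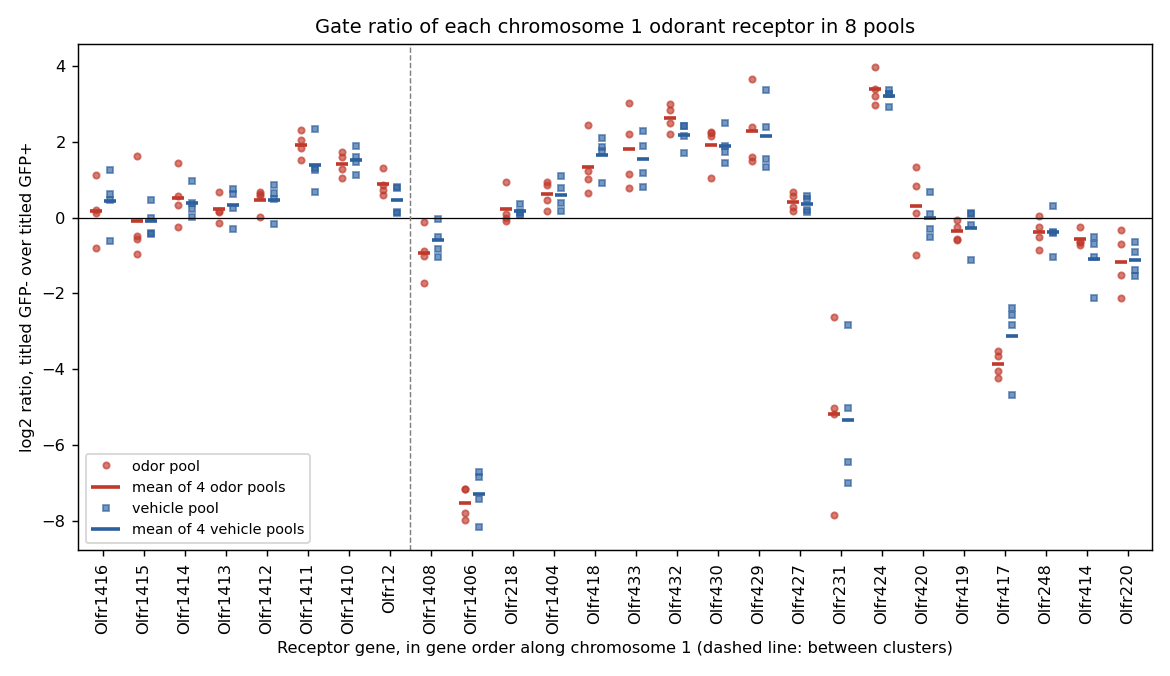
Log2 gate ratio, titled GFP- over titled GFP+ (vertical axis), for each of the 26 receptors in gene order (horizontal axis), with a point for each of 4 odor pools (red circles) and 4 vehicle pools (blue squares) and a bar at the mean of 4 pools. Olfr1406 lies between -8.16 and -6.72, Olfr231 spreads from -7.84 to -2.62, and Olfr424 lies between 2.90 and 3.97.

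Olfr1406 had the largest difference between gates of the 26. In odor pools its log2 values were 4.85, 4.92, 4.79 and 4.33 in the libraries titled GFP-, against 11.99, 12.70, 12.77 and 11.48 in those titled GFP+. In vehicle pools they were 3.94, 5.91, 5.06 and 4.94 in the libraries titled GFP-, against 12.10, 12.63, 12.49 and 11.77 in those titled GFP+. The gates do not overlap, and the receptor was far above background in the libraries titled GFP+. Because both titled GFP- means lie below the background guide, only a bound can be given, taking in each such library the higher of its background guide and the measured value. Olfr1406 was at least 163-fold lower in the titled GFP- libraries of odor pools and at least 131-fold lower in those of vehicle pools (limma adjusted p = 2.12e-08 and 2.26e-08).

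Olfr231 was also lower in the libraries titled GFP-, with a spread between pools that no other of the 26 showed. Its odor pools had log2 values of 3.67, 6.47, 6.37 and 8.05 in the libraries titled GFP-, against 11.51, 11.66, 11.39 and 10.67 in those titled GFP+. Its vehicle pools had 4.23, 5.53, 6.29 and 7.94, against 11.24, 11.96, 11.32 and 10.77. The libraries titled GFP+ were alike, and the spread came from those titled GFP-. The log2 ratio was -5.17 ± 0.78 (SE, n = 4 pools) in odor pools and -5.33 ± 0.78 in vehicle pools (limma adjusted p = 0.000791 and 0.000694), a 35.9-fold and a 40.1-fold difference. It was 19.3-fold without odor pool 1 and 64.7-fold without odor pool 4, and 71.2-fold in vehicle pools without vehicle pool 4. The titled GFP- value of pool 1 lay below that library's background guide in both treatments, so the ratio there is a lower limit on its size. Over 8 pools the ratio had an SD of 1.85, the largest of the 26, while the median SD was 0.53 and the smallest, of Olfr427, was 0.21.

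Olfr417 was the third receptor with a large fall. The libraries titled GFP- of odor pools had 5.42, 5.54, 6.91 and 5.26, against 9.05, 9.58, 10.43 and 9.49 in those titled GFP+. The libraries titled GFP- of vehicle pools had 6.44, 7.19, 7.54 and 4.87, against 9.01, 10.02, 9.93 and 9.54. No titled GFP- value reached the lowest titled GFP+ value. Olfr417 was 14.5-fold lower in odor pools and 8.65-fold lower in vehicle pools (log2 -3.86 ± 0.32 and -3.11 ± 0.32, SE, n = 4 pools each; limma adjusted p = 9.03e-06 and 5.11e-05). The SE is equal because the fit shares the spread between treatments. The ratios themselves had an SD of 0.33 in odor pools and 1.05 in vehicle pools.

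Smaller falls were seen at the ends of the second cluster. Olfr220, its last member in gene order, had log2 ratios of -1.17 ± 0.27 in odor pools and -1.12 ± 0.27 in vehicle pools (SE, n = 4; limma adjusted p = 0.0115 and 0.0158). The call for Olfr220 was lost without odor pool 1 in odor pools (limma adjusted p = 0.0552) and without vehicle pool 1 (0.0713) or 4 (0.0689) in vehicle pools. Its neighbour Olfr414 passed in vehicle pools, at -1.09 ± 0.23 (limma adjusted p = 0.00758), and not in odor pools, at -0.57 ± 0.23 (adjusted p = 0.12), where it did pass without vehicle pool 1 (0.0189). Olfr1408, the first member, passed in odor pools, at -0.93 ± 0.24 (limma adjusted p = 0.0203), and not in vehicle pools, at -0.60 ± 0.24 (adjusted p = 0.123). Its odor call was lost with each library centred on its median (limma adjusted p = 0.0549), without the pool as a block (0.0741) and without odor pool 2 (0.0767), 3 (0.0626) or 4 (0.0887). For neither Olfr414 nor Olfr1408 did the difference between treatments pass, as given below.

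Olfr424 had the largest rise. Its odor pools had log2 values of 11.51, 12.04, 11.54 and 11.78 in the libraries titled GFP-, against 8.54, 8.84, 8.14 and 7.82 in those titled GFP+. Its vehicle pools had 11.61, 12.29, 11.53 and 11.46, against 8.24, 9.39, 8.29 and 8.21. The gates stand apart by more than 2 log2 units in every pool. Olfr424 was 10.4-fold higher in the titled GFP- libraries of odor pools and 9.13-fold higher in those of vehicle pools (log2 3.38 ± 0.16 and 3.19 ± 0.16, SE, n = 4 pools each; limma adjusted p = 1.91e-07 and 3.36e-07). Of the other receptors, 44 had a higher ratio in odor pools and 41 in vehicle pools.

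A run of 4 neighbours, Olfr433, Olfr432, Olfr430 and Olfr429, was higher in the libraries titled GFP- in both treatments. Olfr432 had 8.24, 8.74, 8.15 and 7.15 in the odor libraries titled GFP-, against 5.40, 5.75, 5.66 and 4.95 in those titled GFP+. In vehicle libraries Olfr432 had 8.03, 7.43, 7.51 and 7.00 when titled GFP-, against 5.62, 5.29, 5.09 and 5.31 when titled GFP+. Neither treatment showed any overlap of gates for it, with log2 ratios of 2.63 ± 0.17 and 2.16 ± 0.17 (SE, n = 4; limma adjusted p = 1.4e-06 and 6.67e-06). Olfr429 had log2 ratios of 2.27 ± 0.38 in odor pools and 2.15 ± 0.38 in vehicle pools (limma adjusted p = 0.00173 and 0.00276). Olfr430 had 1.92 ± 0.22 and 1.89 ± 0.22 (limma adjusted p = 0.000121 and 0.000155).

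Olfr433 had the smallest gate ratio of that run in both treatments. It had 6.62, 7.87, 5.88 and 6.66 in the odor libraries titled GFP-, against 5.83, 4.84, 4.72 and 4.45 in those titled GFP+. The vehicle libraries titled GFP- had 6.65, 6.89, 6.05 and 6.89, against 5.85, 4.61, 4.88 and 5.02 in those titled GFP+. The gates did not overlap in either treatment, though several titled GFP+ values sit near the background guide. Its log2 ratio was 1.80 ± 0.35 in odor pools and 1.53 ± 0.35 in vehicle pools (SE, n = 4; limma adjusted p = 0.00431 and 0.0119). The vehicle call was lost without vehicle pool 2 (limma adjusted p = 0.0651) or 4 (0.0551).

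**Figure D3:**
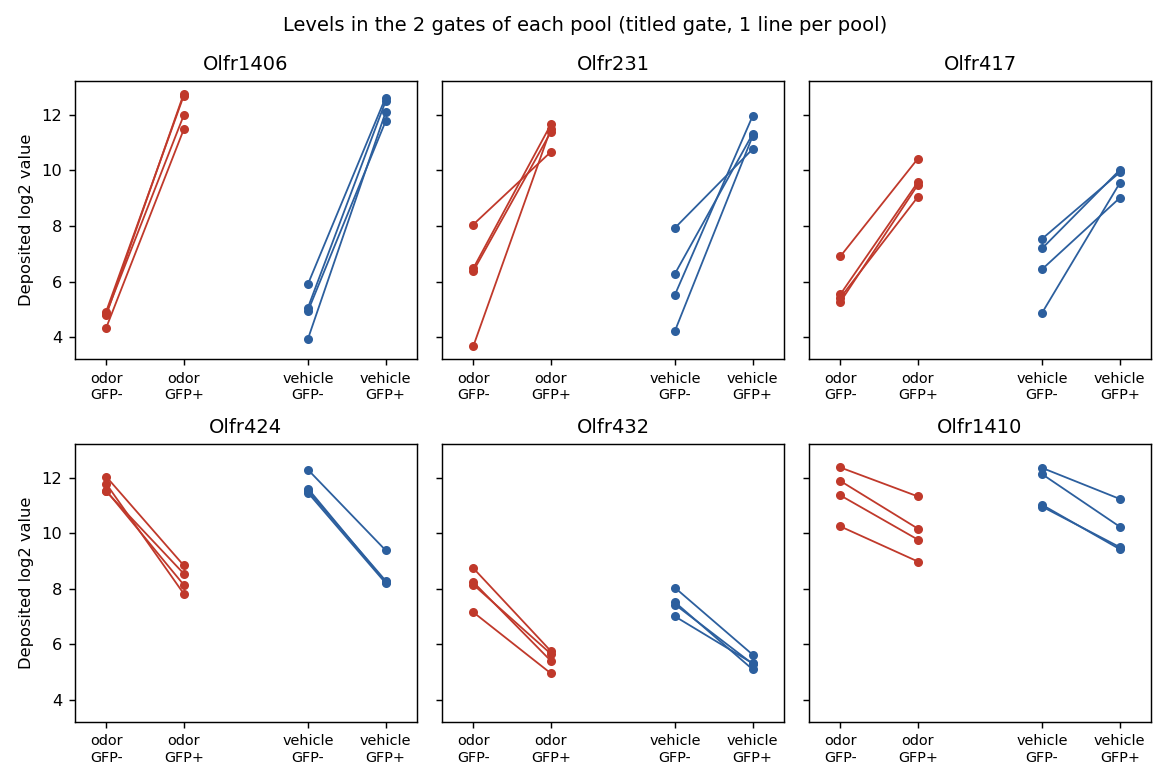
Deposited log2 value (vertical axis) of 6 receptors in the 2 gates of each pool, with a line for each of 4 odor pools (red) and 4 vehicle pools (blue) joining its library titled GFP- (left) to its library titled GFP+ (right). All 8 lines climb towards titled GFP+ for Olfr1406, Olfr231 and Olfr417 and descend for Olfr424, Olfr432 and Olfr1410; the Olfr1410 lines are nearly parallel although the pools lie apart.

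Olfr418, the receptor before that run in gene order, was higher as well. Odor libraries titled GFP- had 10.66, 11.42, 11.64 and 11.05, against 10.00, 10.19, 9.20 and 10.04 in those titled GFP+. Vehicle libraries titled GFP- had 10.45, 11.28, 11.42 and 11.62, against 9.54, 9.53, 9.31 and 9.77 in those titled GFP+. The gates do not overlap, and Olfr418 had log2 ratios of 1.34 ± 0.27 and 1.66 ± 0.27 (SE, n = 4; limma adjusted p = 0.00608 and 0.00169).

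Olfr1410 shows why the pool was kept as a block. Its odor libraries titled GFP- had 11.36, 12.37, 11.88 and 10.24, against 9.77, 11.32, 10.16 and 8.98 in those titled GFP+. Its vehicle libraries had 11.02, 12.13, 12.35 and 10.96 when titled GFP-, against 9.43, 10.23, 11.23 and 9.50 when titled GFP+. The groups overlap, yet within each pool the library titled GFP- was higher, by 1.60, 1.04, 1.72 and 1.27 on the log2 scale in odor pools and by 1.60, 1.89, 1.12 and 1.46 in vehicle pools. The mean of both gates varied between pools with an SD of 0.79, while the ratio varied with an SD of 0.30. With the pool as a block the ratio was 1.41 ± 0.16 in odor pools and 1.52 ± 0.16 in vehicle pools (SE, n = 4; limma adjusted p = 9.78e-05 and 6.4e-05). Without it the call was lost (limma adjusted p = 0.0818 and 0.0639).

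Olfr1411, next to Olfr1410, had 5.83, 6.31, 6.27 and 6.03 in the odor libraries titled GFP-, against 4.32, 4.48, 3.97 and 4.00 in those titled GFP+. In vehicle libraries it had 6.15, 6.47, 5.77 and 5.55 when titled GFP-, against 5.48, 4.14, 4.52 and 4.24 when titled GFP+. Both titled GFP+ means are below the background guide. Olfr1411 was at least 3.21-fold higher in the titled GFP- libraries of odor pools and at least 2.39-fold higher in those of vehicle pools (limma adjusted p = 0.000161 and 0.00181).

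The smallest called rises were those of Olfr12 and Olfr1404. Olfr12 passed in odor pools, at 0.87 ± 0.17 on the log2 scale (limma adjusted p = 0.00425), and not in vehicle pools, at 0.45 ± 0.17 (adjusted p = 0.101), where it did pass with each library centred on its median (0.00448). Olfr1404 had 0.61 ± 0.18 in both treatments (SE, n = 4; limma adjusted p = 0.0399 in odor pools and 0.0444 in vehicle pools). Its calls were lost without the pool as a block (limma adjusted p = 0.213 in odor pools and 0.233 in vehicle pools). The odor call was also lost without odor pool 1 (limma adjusted p = 0.145), 2 (0.165) or 3 (0.0848) or vehicle pool 2 (0.0537) or 3 (0.0502). The vehicle call was lost without vehicle pool 1 (limma adjusted p = 0.175), 2 (0.149) or 3 (0.0708) or odor pool 1 (0.0545), 2 (0.0515) or 3 (0.0608).

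For 10 receptors no gate ratio passed. Among them were both of the receptors with values above 11 in all 16 libraries. Olfr1412 had log2 ratios of 0.47 (95% interval 0.07 to 0.87) in odor pools and 0.45 (0.05 to 0.85) in vehicle pools, with limma adjusted p = 0.103 and 0.124. It passed with an intensity trend in the variance (limma adjusted p = 0.0325 and 0.043), with each library centred on its median (0.00492 and 0.00582) and, in vehicle pools, without vehicle pool 1 (0.0294). Olfr419 had -0.37 (-0.82 to 0.08) and -0.28 (-0.73 to 0.17). Olfr1416, Olfr1415, Olfr1414, Olfr218 and Olfr420, which with these made 7 outside the 3 dim receptors, had ratios from -0.10 to 0.52. Centring each library also brought Olfr1414 and Olfr218 past the threshold in both treatments, and quantile normalization Olfr1414 in odor pools (limma adjusted p = 0.049). In the uncentred fit their intervals reach at most 1.13 on the log2 scale in either direction.

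The receptors lie in 2 clusters, taken as runs of receptor genes with gaps under 1 Mb in the GRCm38.p6 gene table. The first holds 8 of them, Olfr1416 to Olfr12, and the second 18, Olfr1408 to Olfr220. In the first, 3 were higher and 0 lower in odor pools, and 2 higher and 0 lower in vehicle pools. The second had 7 higher and 5 lower in each treatment. In gene order, the stretch of the second cluster from Olfr418 to Olfr424 held 6 of its 7 rises, together with Olfr427, which is below background, and Olfr231. Its bounds were set after the values were seen, so this count is a description only. The stretch spans the widest gap of the cluster, 772 kb between the starts of Olfr418 and Olfr433. Olfr231 and Olfr424 are neighbours with opposite ratios, -5.17 and 3.38 in odor pools and -5.33 and 3.19 in vehicle pools. Probes of a receptor can bind the RNA of a close relative, which was not tested.

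Between receptors of the second cluster lie 14 other genes of the array, 9 of them interferon-inducible genes such as Ifi207. In odor pools 2 of the 14 were higher and 7 lower in the libraries titled GFP-, and in vehicle pools 1 was higher and 6 lower. Among all genes, 7.82% were higher and 10.2% lower in odor pools, and 6.23% and 9.95% in vehicle pools. Whether the 14 differ from genes at large was not tested. Of the lower calls, only Ifi207 and Ifi204 had means above background in all 4 groups. The higher calls were Mptx2 and, in odor pools, Mptx1, both below background in all 4 groups, so nothing is read from them. Ifi207 averaged 5.38 in the odor libraries titled GFP-, against 9.70 in those titled GFP+, and 5.45 against 8.58 in vehicle libraries (limma adjusted p = 1.48e-07 and 1.69e-06). Cadm3, an adhesion molecule, averaged 10.40 against 10.33 in odor pools and 10.39 against 10.43 in vehicle pools, and did not pass. Ackr1, an atypical chemokine receptor, averaged 6.82 against 6.78 and 7.09 against 6.58, and did not pass either. All the lower calls were in interferon-inducible genes, a grouping made after their values were seen, while the receptors on both sides of them, Olfr418 and Olfr433, were higher.

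The comparison of treatments asked whether bourgeonal pulses changed the place of these receptors in the sort. No chromosome 1 receptor passed for the difference between the odor and the vehicle gate ratio, and 0% of all genes did (limma, 19505 genes). At an unadjusted p under 0.05, 0 of the 26 receptors, 79 of the other 1064 and 1109 of all genes were found. The median difference was 0.02 for the 26, beside 0.13 for other receptors and 0.02 for all genes. The smallest p was that of Olfr432, with a difference of 0.47 (95% interval -0.06 to 1.00, limma adjusted p = 0.872). Next came Olfr12 at 0.42 (-0.11 to 0.95), Olfr417 at -0.75 (-1.74 to 0.25), Olfr414 at 0.52 (-0.20 to 1.23) and Olfr1408 at -0.33 (-1.08 to 0.42). Olfr1411, at 0.53, belongs here by its p, but both its titled GFP+ means are below background, so nothing is read from that difference. All 26 intervals hold 0. They reach 0.42 to 2.44 to either side, with a median of 0.72. These intervals are not adjusted, and a call after adjustment over all genes takes a larger change. In this fit changes of that size, and some above it, could therefore go uncalled with 4 pools a treatment. With the pool number as a block, which pairs odor and vehicle pools, Olfr417 alone of the 26 fell under an unadjusted 0.05, with a limma adjusted p = 0.768.

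Within the libraries titled GFP-, where S100a5 was higher, odor and vehicle pools overlapped for every one of the 26 receptors. Overlap was not counted over all genes, so nothing particular to the receptors is read from it. None of the 26 passed, nor did any of the 19505 genes (limma, 0% called). Unadjusted p under 0.05 was found for 0 of the 26, 82 of the other receptors and 869 of all genes. Olfr220 had the smallest p, with 10.85, 10.95, 11.25 and 9.83 in odor pools, against 11.68, 11.40, 11.30 and 10.97 in vehicle pools. Its difference was -0.62 (95% interval -1.24 to 0.003, limma adjusted p = 0.996). Olfr432 followed at 0.58 (-0.12 to 1.28), Olfr1416 at -0.56 (-1.38 to 0.26), Olfr429 at 0.35 (-0.20 to 0.91) and Olfr417 at -0.73 (-1.91 to 0.44). Olfr420, at 0.36, has a vehicle mean below background, so nothing is read from that difference. With the pool number as a block Olfr220, Olfr432 and Olfr417 fell under an unadjusted 0.05, each with a limma adjusted p = 0.909.

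Within the libraries titled GFP+, 0.0103% of all genes passed, which is 2 genes and none of the 26 receptors. Unadjusted p under 0.05 was found for 1 of the 26, 78 of the other receptors and 827 of all genes. The 1 receptor was Olfr414, with 9.28, 9.82, 9.64 and 10.32 in odor pools, against 10.86, 10.29, 10.18 and 10.85 in vehicle pools. The highest odor value lies above the lowest 2 vehicle values, so the groups overlap. Its difference was -0.78 (95% interval -1.31 to -0.26, unadjusted p = 0.0073, limma adjusted p = 0.999). Olfr12 was next at -0.43 (-0.87 to 0.01), then Olfr220 at -0.57 (-1.15 to 0.02), Olfr418 at 0.32 (-0.15 to 0.79) and Olfr427, below background, at -0.14 (-0.46 to 0.18). Olfr1411, at -0.41 with an interval that holds 0, is below background in both groups. With the pool number as a block Olfr414, Olfr220 and Olfr12 fell under an unadjusted 0.05, each with a limma adjusted p = 0.819. Olfr220 and Olfr414, neighbours at the end of the second cluster, were the only 2 receptors with a lower odor than vehicle value in all 8 pairs of libraries of the same gate and number. Both gates of a pool come from the same mice, so these are not 8 independent pairs, and the labels do not say that a number pairs pools. Such pairs were not counted over all genes, and neither Olfr220 nor Olfr414 passed in any comparison of odor with vehicle. The comparisons share libraries, so the values of a receptor in them are not independent of each other.

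**Figure D4:**
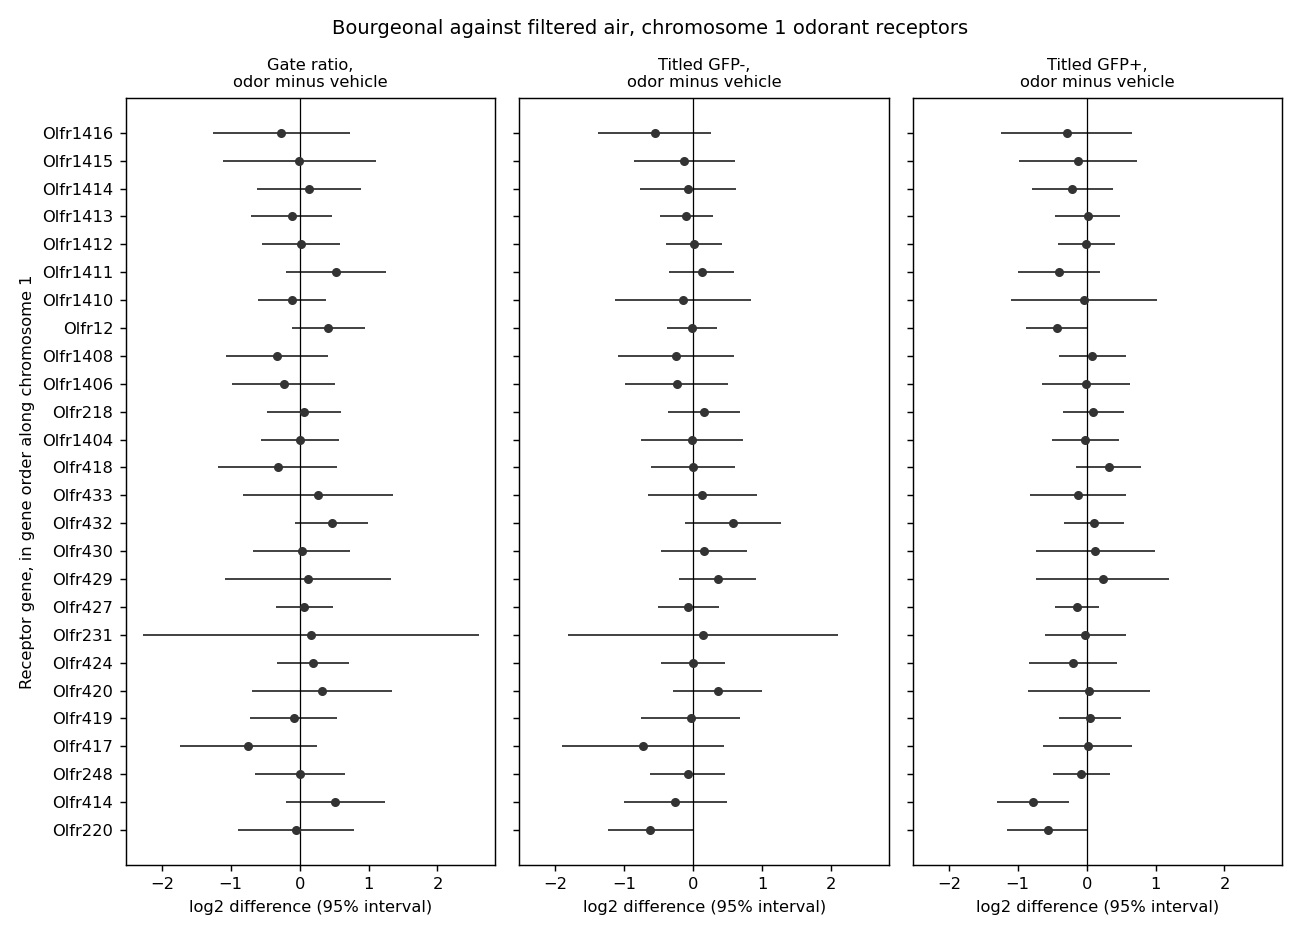
Odor minus vehicle difference on the log2 scale (horizontal axes, 95% interval as bars) for the 26 receptors in gene order (rows), for the gate ratio (left), the libraries titled GFP- (middle) and the libraries titled GFP+ (right). All intervals hold 0 except that of Olfr414 in the libraries titled GFP+, and Olfr231 has the widest in the left and middle panels.

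Some genes of the machinery that receptors work with passed between gates too. Among all genes, 7.82% were called higher and 10.2% lower in odor pools, and 6.23% higher and 9.95% lower in vehicle pools. Whether the lists below differ from genes at large was not tested. Of 16 measured odor transduction genes, 3 were higher and 1 lower in the libraries titled GFP- in odor pools, and 4 were higher and 1 lower in vehicle pools. The calcium-activated chloride channel gene Ano2 had log2 ratios of 0.49 and 0.44, the exchanger Slc24a4 0.54 and 0.49 and the phosphodiesterase Pde1c 0.71 and 0.64. The kinase Grk3, which desensitises receptors, had -0.89 and -1.09. Of 17 genes of receptor choice and trafficking, 0 were higher and 2 lower in odor pools and 0 higher and 1 lower in vehicle pools. Lbr, a lamin receptor whose loss in the nuclei of olfactory neurons lets receptor clusters gather, had -1.03 and -1.09. Cbx5, a heterochromatin protein, had -0.58 in odor pools, and -0.26 in vehicle pools, where it did not pass. Of 9 activity-linked genes, which include S100a5, 6 were higher and 0 lower in odor pools and 6 higher and 1 lower in vehicle pools. None of these genes passed in the comparisons of odor with vehicle.

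Markers of other cells moved with the gate. The part of such cells in the ratios of the receptors, and in those of genes such as Lbr and Grk3, was not tested. All 9 measured immune genes were lower in the libraries titled GFP- in both treatments. Their mean log2 value ranged from 4.46 to 5.43 in the odor libraries titled GFP-, 12.26 to 12.96 in the odor libraries titled GFP+, 4.20 to 5.24 in the vehicle libraries titled GFP- and 11.77 to 12.93 in the vehicle libraries titled GFP+. All 7 microvillar genes and all 4 measured progenitor genes were lower too. In each of these lists 1 gene lay below background in all 4 groups, so nothing is read from its call. Of 8 sustentacular genes, 6 were lower in odor pools and 5 in vehicle pools. Immature neuron genes were lower in 6 of 7 cases in odor pools and 5 of 7 in vehicle pools. Of 5 genes listed for guanylyl cyclase D neurons, 2 fell in odor pools and 1 in vehicle pools. These were Pde2a in both treatments and Ms4a1 in odor pools. The cyclase gene itself, Gucy2d, passed in neither, and 3 of the 5 genes lay below background in all 4 groups. Of 8 mature neuron genes none passed, and their mean log2 value ranged from 16.47 to 16.71 and 16.32 to 16.65 in odor libraries titled GFP- and GFP+, and from 16.49 to 16.64 and 16.53 to 16.61 in vehicle libraries titled GFP- and GFP+.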

How the data were processed

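Clariom S arrays measured 16 libraries of sorted olfactory mucosa cells. Per the submitters' processing notes, the authors used Affymetrix Expression Console, and the deposited values are on the log2 scale. Its version, the summarisation and the build were not given in the sources used here. Of 28846 probe sets, 6546 with neg or pos in the identifier and 94 other controls were left out; 19572 named 1 gene and 2634 none. The probe set with the highest mean was kept per gene, which left 19505 genes. All 26 receptors matched the RefSeq gene table (GRCm38.p6) on chromosome 1.

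Tests used limma 3.58.1 in R 4.3.3, two-sided, with Benjamini-Hochberg adjustment over all genes and a threshold of 0.05. The fits were also run on simulated data with independent noise and no pool effect, which cannot check the block. The gate ratios came from a fit of 16 libraries blocked by pool, as did their difference. Odor was compared with vehicle within a gate on 8 libraries without a block. The SE of a gate ratio is the moderated SE of the fit of 16 libraries, in which both treatments share the spread. Its n is the number of pools averaged in that ratio. Gates of a pool were taken as paired because 24 mice at 3 per library make 8 pools. Deviations from group means correlated at 0.135 to 0.287 between gates of odor pools and at 0.098 to 0.201 in vehicle pools. Across treatments, same-numbered libraries had correlations of 0.088 to 0.161 when titled GFP- and of 0.157 to 0.210 when titled GFP+; only in the second were all above 0.1. The labels do not say what a number stands for, and p-values measure the spread between these pools.

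A receptor was below background in a group when its mean lay under the highest 95th percentile of vomeronasal receptor genes there; bounds set, per library, the higher of that library's own 95th percentile and the receptor's value against the other group's mean. Receptors were named by the size of a called gate ratio, the 6 smallest p-values of each odor comparison, the highest and lowest means, and the most and least variable ratio. Members and lists were chosen with earlier results of these data known. Protein sequences were not used here. Alternatives changed the scaling, the dim gene filter, the probe set choice, the variance prior and the block, and left out each pool.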

Additional observations from a re-analysis of the deposited data

Results flagged for a closer look

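Each receptor's 4 values per group and 4 ratios per treatment were checked for a value far from the others, by Dixon's ratio of the gap to the range at its 95% critical value. Of 156 such sets, 7 passed; chance alone passes about 1 in 20.

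Olfr430 did so in 2 ways. Its gate ratio in odor pools (0.917) was 1.05 in pool 1, against 2.25, 2.22 and 2.15 in the others. Its level in the vehicle libraries titled GFP- (0.89) was 10.23 in pool 3, below the other 3 at 11.30, 11.25 and 11.38. Olfr1408 in the vehicle libraries titled GFP- (0.924) had 8.86 in pool 4, below the other 3 at 10.00, 9.92 and 9.91; its lowest odor value when titled GFP-, 8.26, was also that of pool 4. Olfr424 in the vehicle libraries titled GFP+ (0.93) had 9.39 in pool 2, above 8.24, 8.29 and 8.21. Olfr417 in the odor libraries titled GFP- (0.834) had 6.91 in pool 3, above 5.42, 5.54 and 5.26. In the vehicle libraries titled GFP+, the ratio was 0.921 for Olfr1413 and 0.83 for Olfr248, both below background.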

How the results depend on the processing

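Of the counts of called receptors, the rises in vehicle pools moved by over 1.5 times under 1 setting: 15 rather than 9 with each library centred on its median. That centring shifts the median gate ratio of all genes to 0.46 in odor pools and 0.44 in vehicle pools, against 0.10 and 0.09, and gave 15 rises and 4 falls rather than 10 and 5 in odor pools, and 15 and 5 rather than 9 and 5 in vehicle pools. Leaving out a pool gave 9 to 10 rises and 4 to 6 falls in odor pools, and 7 to 9 rises and 4 to 5 falls in vehicle pools. With no replicate block there were 8 rises and 4 falls in odor pools, and 7 and 5 in vehicle pools. The number as a replicate block, which may pair odor and vehicle pools, left 0 of 26 receptors called in each of the 3 odor comparisons, with a smallest limma adjusted p of 0.768, and 0 were called under every other alternative. Of 15 settings in all, 11 receptors kept their odor gate call and 10 their vehicle call in each. Centring turned the sign of 1 odor and 3 vehicle gate ratios, none of them called. Signal near background compresses ratios.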

Other observations

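Pools that share a number across treatments resembled each other in the gate ratio of several receptors, chosen here after their values were seen. The labels do not say what a number stands for, such as a day of exposure or of sorting. Olfr429 had log2 gate ratios of 1.48, 2.38, 3.64 and 1.59 in odor pools 1 to 4, against 1.33, 2.39, 3.35 and 1.54 in vehicle pools 1 to 4. Olfr231 had -7.84, -5.19, -5.01 and -2.62 in odor pools, against -7.01, -6.43, -5.03 and -2.84 in vehicle pools. For Olfr231 the library titled GFP- was lowest in pool 1 and highest in pool 4 in both treatments, at 3.67 and 8.05 in odor pools and 4.23 and 7.94 in vehicle pools.

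With the number as a block, the SE of the odor minus vehicle difference in gate ratio was 0.18 for Olfr429, against 0.54 without it. For Olfr231 it was 0.32, against 1.10. Both were picked because their ratios were alike by number, so a smaller SE follows from that choice. The SE was smaller with that block for 21 of 26 receptors in the gate difference, 22 of 26 within the libraries titled GFP- and 24 of 26 within those titled GFP+. No receptor passed under it, and an unadjusted p under 0.05 was found for 1, 3 and 3 receptors in these comparisons, against 0, 0 and 1 without it. The smallest limma adjusted p was 0.768. These counts, and those of smaller SEs, were not made over all genes, so nothing particular to the receptors is read from them.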
